A study of Heterocephalus glaber and Mus musculus with 9 samples.

Results

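The Bcl2 family genes described here are the survival genes Bcl2, Bcl2l1, Bcl2l2 and Mcl1, the pore-forming effectors Bax and Bak1, and the triggers Bid, Bad and Bcl2l11. These 9 genes were chosen by symbol, with no measured value in the rule, and 8 of them were found among the 12946 genes of the expression table when symbols were compared without regard to case. Bid was not listed under that symbol and was not analysed here. The values come from RNA sequencing of 9 spleens, 1 library per animal, from 3 mice, 3 naked mole-rats (NM-Rs) with small spleens (ssNM-R 2, 3 and 6) and 3 NM-Rs with large spleens (lsNM-R 1, 4 and 5). The mice were unmodified C57Bl/6N males of 2 months. The ssNM-Rs were males of 23 to 30 months and the lsNM-Rs were 23 to 29 months old, with lsNM-R 4 as the only female. All animals were healthy and untreated, and the NM-Rs were kept warmer than the mice. The 2 cohorts of NM-Rs differ in spleen weight relative to body mass, which is how they were defined. Species, age, housing temperature, the genome used for alignment and the gene annotation all change together between mouse and NM-R and cannot be told apart in these comparisons.

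Proteins of the Bcl2 family decide whether the outer mitochondrial membrane stays sealed. Bax and Bak1 form pores that release cytochrome c and so start the caspase cascade, the survival proteins hold them in check, and the triggers, which of the shared segments carry only BH3, bind the survival proteins or the effectors and tip the balance towards death. In blood-forming organs the survival genes are used by different lineages: Bcl2 is a classical survival gene of resting lymphocytes, Bcl2l1 (Bcl-xL) keeps maturing erythroblasts and platelets alive, and Mcl1 is needed by stem cells, lymphocytes and granulocytes.

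The BH3 segment is what joins the family. It is the helix by which triggers dock into survival proteins, and the survival and effector proteins carry their own copy. The mouse coding sequence of this segment is shown for each of the 8 genes, read from the mm9 genome on the coding strand, 45 bases each. Capitals mark the codon of the first conserved residue and, after 3 further codons, the pair of codons that closes the conserved core.
Bcl2: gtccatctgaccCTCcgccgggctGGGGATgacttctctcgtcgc
Bcl2l1: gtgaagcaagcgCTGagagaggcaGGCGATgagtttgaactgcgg
Bcl2l2: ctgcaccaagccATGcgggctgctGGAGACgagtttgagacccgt
Mcl1: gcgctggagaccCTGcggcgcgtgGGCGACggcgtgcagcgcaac
Bax: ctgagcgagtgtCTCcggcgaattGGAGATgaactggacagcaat
Bak1: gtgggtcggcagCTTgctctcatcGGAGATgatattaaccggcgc
Bad: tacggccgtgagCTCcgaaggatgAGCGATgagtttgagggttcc
Bcl2l11: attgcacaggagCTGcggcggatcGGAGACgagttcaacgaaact

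In mm9 the segment lies within a single coding exon in every one of the 8 genes. For Bcl2 this is exon 1 of 2 (chr1:108609146-108609190, minus strand). For Bcl2l1 it is exon 2 of 3 (chr2:152655427-152655471, minus strand). Bcl2l2 carries it in exon 3 of 4 (chr14:55503342-55503386, plus strand), and Mcl1 in exon 2 of 4 (chr3:95463347-95463391, plus strand). The effectors carry it in exon 3 of 6 for Bax (chr7:52721361-52721405, minus strand) and in exon 4 of 6 for Bak1 (chr17:27159470-27159514, minus strand). In the triggers it lies in exon 3 of 4 for Bad (chr19:7025270-7025314, plus strand) and in exon 3 of 4 for Bcl2l11 (chr2:127972874-127972918, plus strand). Between members, the most alike pair was Bcl2l1 and Bcl2l2, with 28 identical bases of 45, while Bcl2 and Bcl2l1 shared 23. No member's row was identical to another row of the table across the NM-R libraries.

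The values of the table are normalized counts, in which the authors scaled the reads of each library by 1 size factor, computed over both species together, and did not divide by gene length. Between 7815326 and 18387599 reads per library could be recovered from them, and 9 libraries limit every comparison to 3 spleens per group. Marker genes of spleen cell types were present in all groups, with no marker at 0 in all mice or all NM-Rs. The summed level of 11 B cell markers was 12.7-fold lower in NM-R than in mouse, and that of 12 T cell markers 2.53-fold lower. The sums of 9 granulocyte, 11 erythroid and 5 megakaryocyte markers were 3.85-fold, 4.27-fold and 5.73-fold higher, respectively. Single markers differed within 2 of these lists, with 7 granulocyte markers called higher and 2 lower, and 4 megakaryocyte markers higher and 1 lower. The 8 markers of fat and muscle were mixed, with 5 called higher, 1 lower and 2 not called, and Myh1 alone made up most of their sum in NM-R (924 of 1162 normalized counts, compared to 9.01 of 172 in mouse). Those of liver and pancreas reached 2576 normalized counts in ssNM-R 6, of which Alb alone made up 2173, compared to 237 to 851 in the other NM-R spleens. In whole spleen, a change in the number of cells of a type and a change in RNA per cell cannot be told apart.

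The family did not move in one direction. In the ssNM-R spleens compared to mouse, 2 of the 8 members were called higher, where 38.0% of all genes were, and 6 were called lower, where 37.5% of all genes were. In the lsNM-R spleens the counts were again 2 higher (background 38.1%) and 6 lower (background 37.0%). For the mean of both cohorts they were 2 higher (background 39.7%) and 6 lower (background 38.8%). Called means an adjusted p under 0.05 in limma over all genes. In every comparison with mouse the higher pair was Bcl2l1 and Bad. Both cohorts were compared to the same 3 mice, so their differences from mouse are not independent of each other and are given side by side. For all 8 members the NM-R and mouse spleens did not overlap, which was also true of 72.59% of all genes. A gap between the species of this kind was thus common across the whole table, and the counts of called members are not read as a property of the family.

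**Figure D1:**
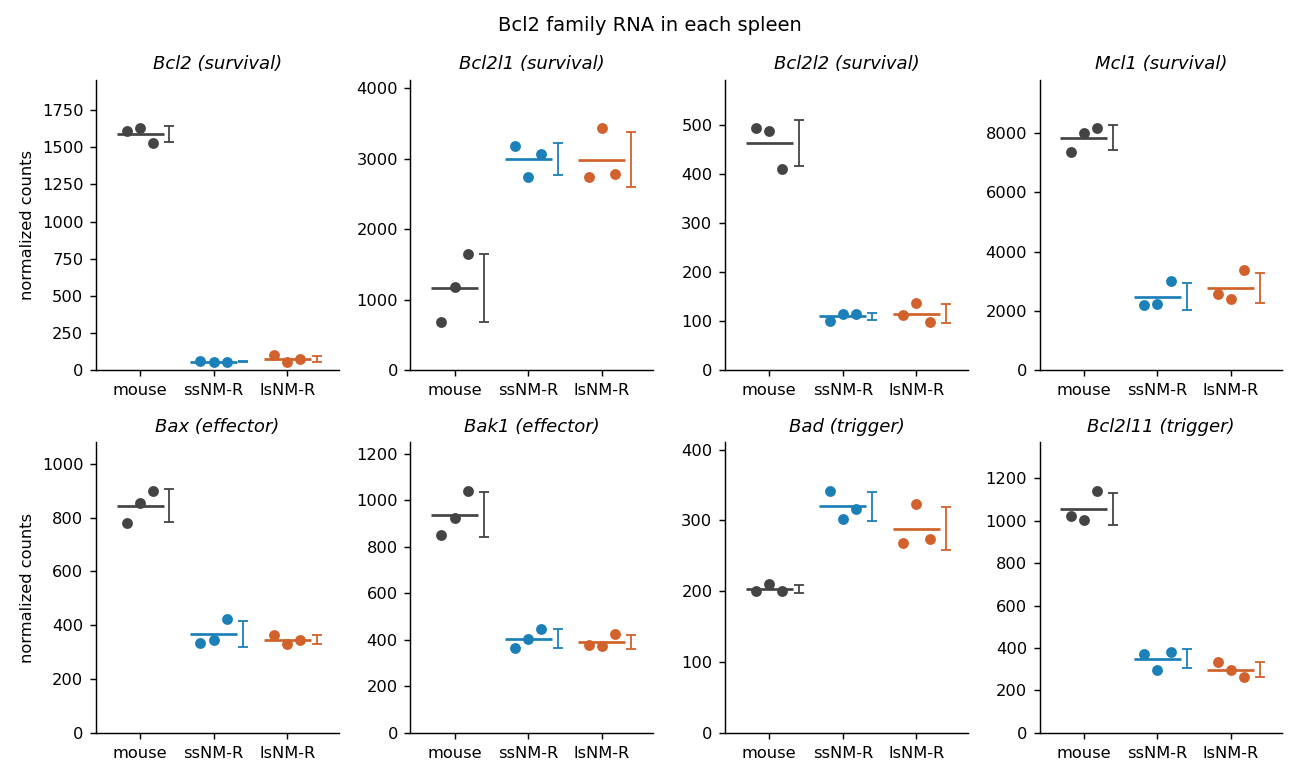
Normalized counts (linear axes from 0) of the 8 family members in each of the 9 spleens, by group; points are spleens, horizontal lines are means and error bars are the SD (n = 3). Bcl2l1 and Bad are higher in every NM-R spleen than in every mouse spleen, the other 6 members are lower, and the ssNM-R and lsNM-R points overlap in all panels.

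Bcl2, the founding survival gene of the family, showed the widest gap. The mouse spleens held 1612, 1628 and 1531 normalized counts. The ssNM-R spleens held 61.5 (ssNM-R 2), 54.0 (ssNM-R 3) and 56.2 (ssNM-R 6), and the lsNM-R spleens 100.3 (lsNM-R 1), 57.8 (lsNM-R 4) and 73.4 (lsNM-R 5). Every NM-R spleen was therefore far below every mouse, and lsNM-R 1 was the highest of the NM-Rs. The means were 1590.3 ± 52.0 in mouse, 57.3 ± 3.85 in ssNM-R and 77.2 ± 21.5 in lsNM-R (SD, n = 3). This made Bcl2 27.8-fold lower in ssNM-R (log2 fold change -4.77 ± 0.19 SE, limma adjusted p = 2.37e-08) and 20.6-fold lower in lsNM-R (-4.38 ± 0.19, adjusted p = 4.08e-08). The NM-R values rest on 36 to 117 reads per library, compared to 1460 to 1606 in mouse, so the gene was detected in every NM-R spleen but on few reads. In ssNM-R 6, lsNM-R 4 and lsNM-R 5 it had 89, 82 and 117 reads. These libraries held 16883689 to 18387599 reads in all, more than any mouse library (10441982 to 11180912).

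Bcl2l1, which encodes the survival protein Bcl-xL, went the other way. Its levels were 679, 1174 and 1645 normalized counts in mouse 1, 2 and 3. They were 3179, 2746 and 3067 in ssNM-R 2, 3 and 6, and 2746, 3432 and 2779.8 in lsNM-R 1, 4 and 5. The mice thus spread more than the NM-Rs, and mouse 3, the highest of them, was still below the lowest NM-R. The means were 1166 ± 483, 2997 ± 225 and 2986 ± 387 normalized counts, a rise of 2.57-fold in ssNM-R (log2 fold change 1.45 ± 0.26 SE, limma adjusted p = 5.98e-04) and of 2.56-fold in lsNM-R (1.44 ± 0.26, adjusted p = 6.45e-04). Over both cohorts the log2 fold change was 1.44, and it moved to 1.10 without mouse 1 and to 1.74 without mouse 3.

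Bcl2l2 (Bcl-w), a survival gene with wide tissue expression, was lower in NM-R. It stood at 494, 488 and 410.0 normalized counts in the mice, at 101, 114 and 114 in the ssNM-Rs and at 113, 136 and 97.8 in the lsNM-Rs. The groups of NM-Rs overlapped and lay well under the mice. The gene was 4.23-fold lower in ssNM-R (log2 fold change -2.07 ± 0.16 SE, limma adjusted p = 1.57e-06) and 4.01-fold lower in lsNM-R (-2.00 ± 0.16, adjusted p = 2.07e-06).

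Mcl1, whose short-lived protein guards many blood cells, was lower in NM-R as well. Its normalized counts were 7354, 8010.0 and 8159.8 in the mice, 2198, 2229 and 2992 in ssNM-R 2, 3 and 6, and 2583, 2413 and 3363 in lsNM-R 1, 4 and 5. All NM-R spleens were below all mice, with ssNM-R 6 and lsNM-R 5 the highest of their cohorts. The fall was 3.17-fold in ssNM-R (log2 fold change -1.68 ± 0.16 SE, limma adjusted p = 5.57e-06) and 2.81-fold in lsNM-R (-1.51 ± 0.16, adjusted p = 1.26e-05).

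The effectors Bax and Bak1 moved by nearly the same amount. Bax, which travels from the cytosol to the mitochondria when a cell is stressed, was at 782, 854 and 899.8 normalized counts in the mice. It was at 334, 345 and 423 in ssNM-R 2, 3 and 6 and at 363, 330.0 and 346 in lsNM-R 1, 4 and 5. Bak1, its partner that resides on mitochondria, was at 849.9, 922 and 1040.3 in the mice. It was at 364, 405 and 446 in the ssNM-Rs and at 376, 374 and 424 in the lsNM-Rs. For both genes the lowest mouse lay above the highest NM-R, which was ssNM-R 6. Bax was 2.30-fold lower in ssNM-R (log2 fold change -1.21 ± 0.12 SE, limma adjusted p = 8.49e-06) and 2.44-fold lower in lsNM-R (-1.28 ± 0.12, adjusted p = 5.77e-06). Bak1 was 2.31-fold lower in ssNM-R (-1.21 ± 0.12, adjusted p = 8.74e-06) and 2.40-fold lower in lsNM-R (-1.26 ± 0.12, adjusted p = 7.01e-06).

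The triggers split. Bad, which links growth factor signals to the mitochondria because its phosphorylation keeps it away from Bcl-xL, was at 201, 209.8 and 200.3 normalized counts in the mice. It was at 342, 302 and 316 in the ssNM-Rs and at 268, 323 and 273 in the lsNM-Rs. This was the smallest species difference among the 8 members, yet every NM-R was above every mouse. Bad was 1.57-fold higher in ssNM-R (log2 fold change 0.65 ± 0.12 SE, limma adjusted p = 7.61e-04) and 1.42-fold higher in lsNM-R (0.49 ± 0.12, adjusted p = 0.00413).

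Bcl2l11 (Bim), the trigger that removes lymphocytes deprived of cytokines or reactive to self, moved against Bad. Its levels were 1021, 1002 and 1141 normalized counts in the mice, 373, 297 and 381 in the ssNM-Rs, and 333, 295 and 265 in the lsNM-Rs. All NM-R spleens were below all mice, and the cohorts overlapped. The fall was 3.01-fold in ssNM-R (log2 fold change -1.59 ± 0.13 SE, limma adjusted p = 2.74e-06) and 3.55-fold in lsNM-R (-1.83 ± 0.13, adjusted p = 1.13e-06).

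**Figure D2:**
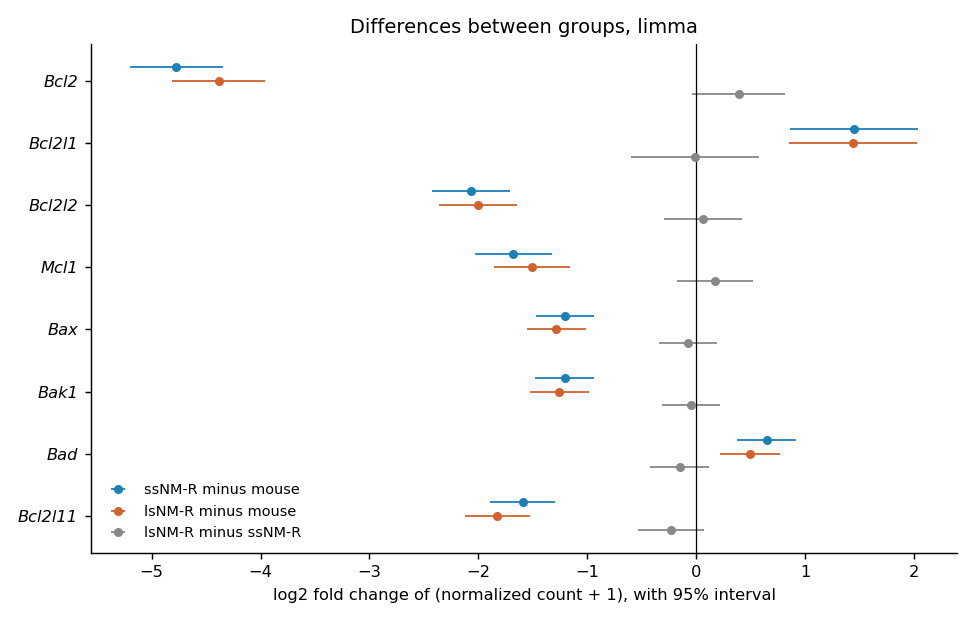
Log2 fold changes (horizontal axis, log2 of normalized count + 1) of each member with 95% intervals from limma, for ssNM-R minus mouse, lsNM-R minus mouse and lsNM-R minus ssNM-R. The intervals of both comparisons with mouse lie on one side of 0 for every member, from -4.77 for Bcl2 to 1.45 for Bcl2l1 in ssNM-R, and the intervals between cohorts all include 0.

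Between large and small NM-R spleens, none of the 8 members was called, and limma called 0 of all genes (0% background). At an unadjusted p under 0.05 limma counted 1138 genes and edgeR 1106, edgeR called 0 after adjustment, and DESeq2 called 57, of which 41 were higher and 16 lower in lsNM-R. No member was among those. The cohorts overlapped for all 8 members, and they did not overlap for 13.06% of all genes. The largest difference was that of Bcl2, higher in lsNM-R by 0.39 on the log2 scale (95% interval -0.04 to 0.81, unadjusted p = 0.0683, limma adjusted p = 0.593). Without lsNM-R 1 this was 0.18, and without lsNM-R 4, the only female, it was 0.58. Bcl2l11 was lower by 0.23 (log2 difference -0.23, 95% interval -0.53 to 0.07, adjusted p = 0.643). For Bcl2l1 the log2 difference was -0.01, with a 95% interval from -0.60 to 0.58, the widest among the 8 members. The interval was -0.35 to 0.19 for Bax and -0.32 to 0.22 for Bak1.

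In mouse, the members could also be ranked by normalized counts per kilobase of annotated exon. Mcl1 came first with 2250.0 ± 123 counts per kilobase (SD, n = 3), followed by Bax with 631 ± 44.5 and Bak1 with 389 ± 39.9. Bcl2l1 (246 ± 102) and Bcl2 (221 ± 7.23) overlapped in the next place. Bcl2l11 stood at 131 ± 9.36, and Bcl2l2 (104 ± 10.5) and Bad (101 ± 2.68) overlapped at the low end. No such ranking was made for NM-R, whose exon lengths were not analysed here.

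The proportions of the survival genes to each other differed between the species. The log2 ratio of Bcl2l1 to Bcl2 counts lay between -1.25 and 0.10 in the mice and between 4.76 and 5.87 in the NM-Rs, a difference of 6.02 on the log2 scale. The log2 ratio of Bcl2l1 to Mcl1 was higher in NM-R by 3.04. For the effector Bax the direction depended on the survival gene it was set against. The log2 ratio of Bax to Bcl2 was higher in NM-R by 3.33, whereas the log2 ratio of Bax to Bcl2l1 was -0.38 ± 0.54 in mouse and -3.06 ± 0.20 in NM-R (SD), a difference of -2.69. These ratios combine values already tested and are given as a description. They are not per length, so their level is not read, and their difference between species includes any difference of annotated length between mouse and NM-R, which was not analysed here.

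Some cell type markers moved with Bcl2 and Bcl2l1, while Mcl1 and the summed granulocyte markers moved apart. Bcl2 fell beside the B and T cell markers: the B cell sum was 61576 to 62705 normalized counts in mouse and 3218 to 7860 in NM-R, with all 11 listed markers called lower. Among the NM-Rs the order of the B cell sums was not that of Bcl2. The highest B cell sum (7860) and the highest Bcl2 were both in lsNM-R 1. The next highest sum (5760) was in ssNM-R 3, which had the lowest Bcl2. The lowest sum (3218) was in ssNM-R 2, which had more Bcl2 than ssNM-R 3 or ssNM-R 6. Bcl2 rests on only 45, 36 and 89 reads in ssNM-R 2, 3 and 6, so its order among them is uncertain. Bcl2 came to 2.57% ± 0.11 of the B cell sum in mouse and to 1.45% ± 0.33 in NM-R (SD), and to 11.5% ± 0.86 and 1.25% ± 0.23 of the T cell sum. Relative to either list, Bcl2 was thus lower in every NM-R spleen than in every mouse. Bcl2l1 rose beside the erythroid markers, of which all 11 listed were called higher. The erythroid sum was 25265, 58228 and 73412 in mouse 1, 2 and 3, the same order as their Bcl2l1, and 178409 to 282080 in NM-R. Among the NM-Rs the highest erythroid sums were in ssNM-R 2 (282080) and lsNM-R 4 (263085). The same spleens had the highest Bcl2l1, in the reverse order (3179 and 3432). The order of the others differed, with 3067 Bcl2l1 counts and a sum of 185931 in ssNM-R 6, and 2746 and 216080 in lsNM-R 1. Bcl2l1 came to 2.32% ± 0.34 of the erythroid sum in mouse and to 1.37% ± 0.20 in NM-R. This share depends on the markers summed, whose rises ranged from 2.07-fold (Klf1) to 23.6-fold (Kel), compared to 2.57-fold for Bcl2l1. Mcl1 fell, while the granulocyte sum was 8233 to 10679 normalized counts in the mice and 26856 to 46219 in the NM-Rs. Mcl1 came to 83.7% ± 15.1 of that sum in mouse and to 7.44% ± 2.23 in NM-R (SD). S100a9 (17494) and Ltf (9003) held most of the mean NM-R sum of 36586 normalized counts. For the mean of both cohorts, 7 of the 9 granulocyte markers were called higher and 2 lower. Cxcr2 was 2.91-fold lower in NM-R, close to the 2.98-fold fall of Mcl1. The part of these cell types in the changes of Bcl2, Bcl2l1 and Mcl1 was not tested.

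**Figure D3:**
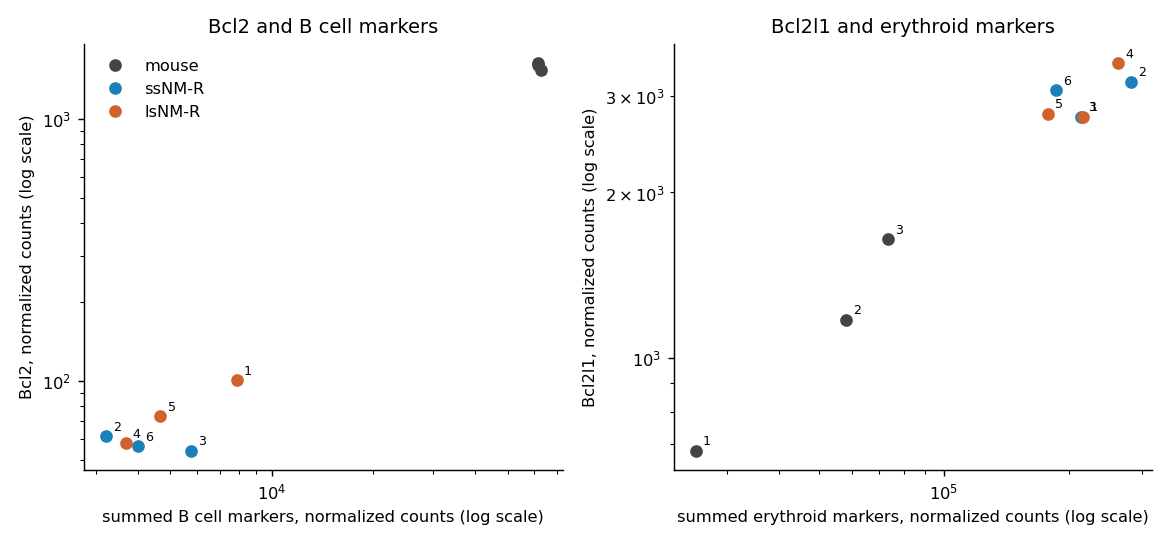
Left, Bcl2 against the sum of 11 B cell markers; right, Bcl2l1 against the sum of 11 erythroid markers (both axes in normalized counts on log scales, 1 point per spleen, numbers as in the labels). The mice form a tight group at high Bcl2 on the left, and on the right mouse 1, 2 and 3 lie at 679, 1174 and 1645 Bcl2l1 counts, below all NM-R spleens.

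Because counts were not divided by length, the length of the annotated untranslated exon sequence enters any comparison between 2 annotations. Of the genes of the table, 10374 (80.1%) matched a protein-coding gene of the mm9 annotation by symbol. Split into 5 equal groups by the non-coding exon length of the mouse gene, their median log2 fold change from mouse to NM-R went from 0.54 in the group with the shortest sequence to -0.38 in that with the longest. Bcl2, with 6483 non-coding bases, and Bcl2l11, with 7382, are in the longest group, in which 50.1% of genes were called lower. Bcl2l1, Bcl2l2 and Mcl1 are in the fourth group, Bak1 in the third, Bad in the second, and Bax, with 763 non-coding bases, in the shortest. Bcl2, Bcl2l11, Bcl2l2, Mcl1 and Bad moved in the direction of their group's median. Bcl2l1 and Bax moved against theirs, which were -0.12 and 0.54, respectively. Bak1 fell in a group whose median was near 0 (0.01). In the fourth group the median was small beside its 25th to 75th percentile of -1.08 to 0.79. The part of annotation length in the members' values was not tested. In mm9 the exons of Bcl2, Bak1 and Bad also overlap an antisense gene by 558, 357 and 517 bases, and those of Bcl2l2 overlap a gene on the same strand by 594 bases. Whether the counting used strand is not given in the sources used here, so reads in these stretches may be uncertain.

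**Figure D4:**
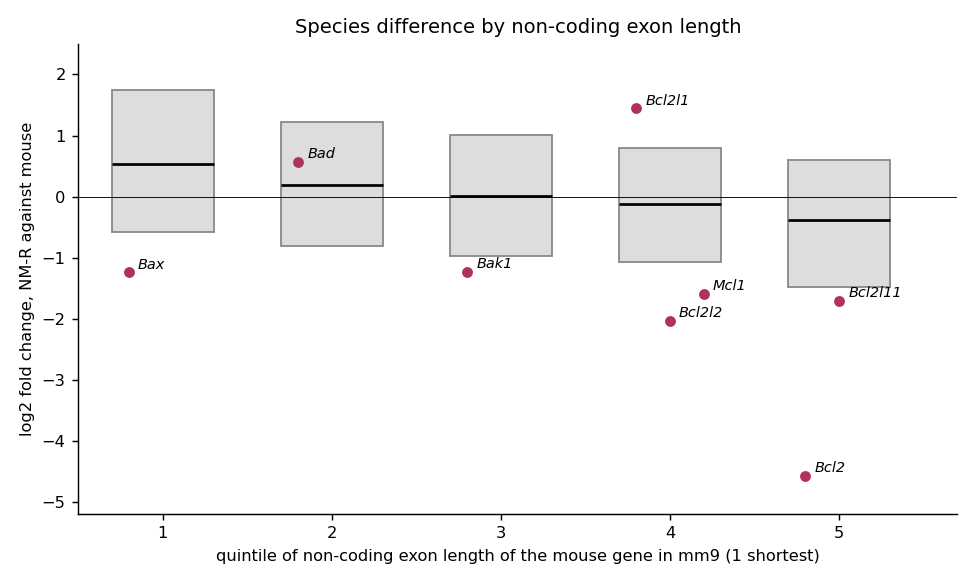
Log2 fold change from mouse to NM-R (mean of both cohorts) by quintile of non-coding exon length of the mouse gene; boxes span the 25th to 75th percentile of 2074 or 2075 genes, lines are medians and points are the family members. Medians descend from 0.54 to -0.38, with Bcl2 at -4.58 far under its box and Bcl2l1 at 1.44 above its box.

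Other genes of the family and of the pathway were taken from fixed lists, and their values are given for the mean of both NM-R cohorts compared to mouse, where all genes together had a median log2 fold change of 0.01. In this comparison 39.7% of all genes were called higher and 38.8% lower, and the counts of each list are to be read against these shares. Of 16 further Bcl2 family genes 4 were in the table, and all 4 were called lower, compared to 38.8% of all genes (median log2 fold change -1.48). Bmf, a trigger released when cells lose their anchorage, fell from 852 ± 60.9 normalized counts in mouse to 63.9 ± 11.1 in NM-R (log2 fold change -3.73, limma adjusted p = 2.78e-08). Bcl2l14 fell by 2.16 on the log2 scale, Bok, an effector relative of Bax, by 0.81 and Bcl2l12 by 0.66. The call for Bok was lost without mouse 1, with a log2 fold change of -0.65 (adjusted p = 0.0532).

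Downstream of the pore, 4 of 6 genes of the apoptosome and the released factors were in the table, with 2 called higher, 1 lower and a median of 0.29. Apaf1, the scaffold that cytochrome c assembles into the apoptosome, was lower (993.5 ± 19.2 compared to 576 ± 108 normalized counts, log2 fold change -0.81, limma adjusted p = 6.13e-05). Endog and Aifm1, which leave the mitochondria for the nucleus, were higher by 0.74 and 0.56 on the log2 scale. Of the caspases, 5 of 6 were in the table (median 0.15), with 2 called higher and 2 lower. Casp9, the caspase that the apoptosome activates, was 4.28-fold lower (log2 fold change -2.10, adjusted p = 1.87e-07), and Casp8, the initiator of the death receptor arm, was 2.60-fold lower (-1.38, adjusted p = 2.62e-07). Casp2 rose by 0.32 on the log2 scale. The call for Casp2 was lost without mouse 1 or without mouse 2. Casp6 was not called, with 402 ± 39.8 normalized counts in mouse and 448 ± 44.2 in NM-R, except with quantile normalization (log2 fold change 0.26, adjusted p = 0.0435).

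Of 6 IAP inhibitors, which block caspases or mark signalling proteins for degradation, 3 were in the table (median -1.74). Birc3 and Birc6 fell by 2.28 and 1.74 on the log2 scale. Birc5 (survivin), a protein of dividing cells, rose by 0.82 (limma adjusted p = 0.0236), but its 3 mice spread from 398 to 1244 normalized counts, and without mouse 1 the log2 fold change was 0.37 (adjusted p = 0.0843). In the death receptor arm 7 of 9 genes were in the table, 3 called higher and 4 lower (median -0.51). Tnfsf10, the ligand TRAIL, rose 5.10-fold, from 290 ± 42.1 in mouse to 1476 ± 482 in NM-R (log2 fold change 2.29, adjusted p = 8.49e-06), and the receptor Fas rose by 0.76 on the log2 scale. The adaptor Fadd and the inhibitor Cflar (c-FLIP) fell by 1.39 and 1.49. One of the 4 lower calls, that of Tnfrsf1a (log2 fold change -0.51), was lost without mouse 1, without mouse 2 or with an equal upper quartile (-0.42, adjusted p = 0.0556).

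Genes that act on Bcl2 family proteins were mixed, with 3 called higher and 5 lower among the 10 of 12 in the table (median -0.30). Pim1, a kinase that phosphorylates Bad, rose 4.15-fold (log2 fold change 2.05, limma adjusted p = 2.43e-07), and its relative Pim3 rose by 0.74 on the log2 scale. The co-chaperones Bag1 and Bag4 fell by 1.15 and 1.16, and Huwe1, a ubiquitin ligase of Mcl1, by 1.07. The call for Fbxw7, another ligase of Mcl1 (-0.32, adjusted p = 0.0263), was lost when any of 5 spleens was left out (mouse 1, mouse 3, ssNM-R 2, ssNM-R 3 or lsNM-R 4), with adjusted p-values of 0.0509 to 0.0883, and also with an equal upper quartile (adjusted p = 0.114) or quantile normalization (0.112). Among transcription factors that act on the family, 7 of 13 were in the table, 4 called higher and 3 lower (median 0.54). Gata1, the erythroid factor that switches on Bcl2l1, rose 6.76-fold (log2 fold change 2.92, adjusted p = 1.64e-05) and is also one of the erythroid markers. Foxo1 fell by 2.02 on the log2 scale, while its relative Foxo3 rose by 0.66. The NF-kB subunits Nfkb1 and Rela fell by 2.17 and 0.99.

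**Figure D5:**
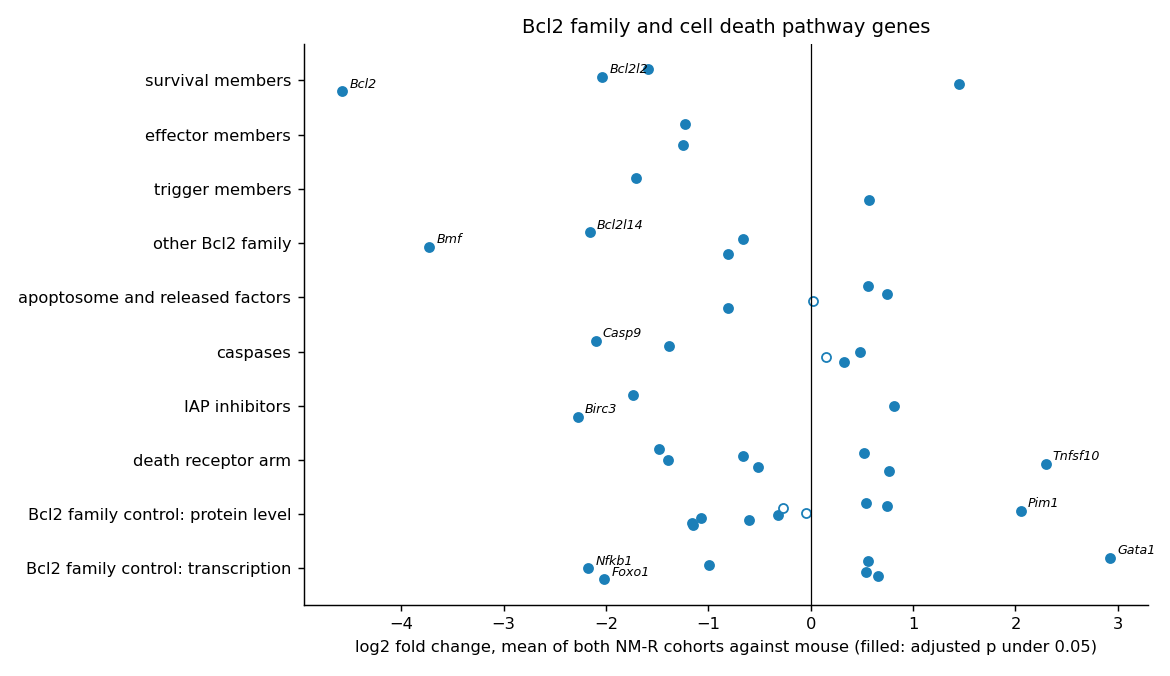
Log2 fold change (horizontal axis) of every listed gene of the family and pathway in the table, mean of both NM-R cohorts against mouse; each point is a gene, filled where the limma adjusted p is under 0.05. Lists hold genes on both sides of 0, except the effectors and the other Bcl2 family genes, all of which lie below it, with Bcl2 (-4.58) and Bmf (-3.73) the farthest left and Gata1 (2.92) the farthest right.

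Genes with the most similar pattern were found from the mean absolute difference of centred log2 values over the 9 spleens, among genes whose mean reached at least 100 normalized counts. Nearest to Bcl2 were Jam2 (mean difference 0.11), Hla-Dob (0.15) and Slc7a2 (0.15), of which Hla-Dob went from a mean of 6646 normalized counts in mouse to 307 in NM-R. Nearest to Bcl2l1 were Gmnn (0.06), a gene known by its NM-R identifier alone (0.07) and Cdca3 (0.07). Gmnn went from 322 to 809 and Cdca3 from 850.3 to 1942 normalized counts. Nearest to Mcl1 were Selenof (0.06), Myo1e (0.08) and Aebp2 (0.10). The 9 points share their libraries and fall into 2 species, so the measure includes the species difference.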

How the data were processed

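The authors sequenced RNA from whole spleens of 3 mice and 3 NM-Rs of each cohort. The methods and the labels differ on the instrument, library kit and maker of the extraction kit. Per the methods, the authors aligned reads with STAR 2.5.3a to mm9 for mouse and to hetGla2/hetGla Female_1.0 for NM-R, counted them per gene with htseq-count (HTSeq 0.10.0), gave NM-R genes the names of mouse homologues and divided the merged counts by DESeq2 size factors. The deposited signal values are these normalized counts. In each library 100% of values were whole multiples of 1 step within 0.01 of a step, which returned the reads (7815326 to 18387599 per library). The table holds 1025 rows with an NM-R identifier alone, and some rows carry human-style symbols.

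Groups were taken from the organism and spleen size in the labels. The spleens of a group are separate animals. Values were taken as log2(normalized count + 1), which understates changes of low genes, and fitted in a single limma 3.58.1 model under R 4.3.3, which gave each group its own mean and moderated a trended variance shared by the 9 spleens. Tests were 2-sided. All 12946 genes were tested and adjusted together (Benjamini-Hochberg, threshold 0.05). No filter on low values was applied, and all 8 listed members were tested. Folds are ratios of group means. The fit was tested on simulated data. There far fewer genes changed than between these species, and every gene had the same spread, so that test does not cover the present setting. Count tests on the recovered reads used edgeR 4.0.16 (quasi-likelihood, TMM) and DESeq2 1.42.0, and called 10111 and 10024 genes, respectively, between NM-R and mouse, compared to 5134 higher and 5024 lower with limma. Other alternatives were pseudocounts of 0.5 and 5, a mean of at least 10 normalized counts, 4 rescalings, no variance trend, only the compared groups, a replicate block, each spleen left out and, chosen after seeing the data, a term for depth. Sequences and exon lengths come from the mm9 genome and its GENCODE annotation. The genes named are the members, the pathway lists and, for Bcl2, Bcl2l1 and Mcl1, the 3 genes of most similar pattern. The members and lists were chosen with earlier results of these data known. Results of some listed genes are not reported here.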

Additional observations from a re-analysis of the deposited data

Results flagged for a closer look

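Bax in ssNM-R 6 stood apart from the other NM-R spleens, with 423 normalized counts compared to 330.0 to 363 in the other 5. Its gap to the next spleen, set against the range of all 6, was above the 95% critical value of Dixon's test. Chance gives such a value in about 1 of 20 groups, and all 8 members were examined in this way. The same spleen had the highest Bak1 of the NM-Rs (446), and Bax stayed below every mouse there. It also had the highest sum of liver and pancreas markers (2576), most of which was Alb alone (2173). The part of other tissue in this value was not tested.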

How the results depend on the processing

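For the 52 results on members, their ratios and counts, 1016 values were recomputed under alternatives, and all but 13 were taken as unchanged. For a member this meant the same direction and side of the threshold. A count had to stay within a set factor, and a ratio had to shift by less than the combined SD of mouse and NM-R. Thus 3940 genes called higher in lsNM-R than in mouse with the replicate block, in place of 4926, were taken as unchanged. Every member kept its direction and call between NM-R and mouse with one exception under the replicate block. The labels give groups shared numbers, but same-numbered spleens are different animals and their deviations did not correlate (r = 0.0326, -0.00346 and -0.00998). With the replicate block, Bad in lsNM-R compared to mouse was 0.417 on the log2 scale (adjusted p = 0.144), so that 1 member in place of 2 was called higher there. The block changed no other call of a member, and of the pathway genes it ended the call of Casp2 (0.312, adjusted p = 0.0523). Between cohorts, where limma called 0 genes, DESeq2 called 41 higher and 16 lower. Uncalled differences between cohorts changed sign for Bcl2l1 with equal totals (0.0028) and with quantile normalization (0.0047). With single spleens left out they ranged from -0.115 to 0.0461 for Bcl2l1, from -0.0583 to 0.178 for Bcl2l2, from -0.143 to 0.0281 for Bax and from -0.123 to 0.0240 for Bak1. Of the 40 other pathway genes, 6 had a call that changed under some alternative, among them Birc5 with a term for depth (0.843, adjusted p = 0.0547). Of those not called, Htra2 changed sign with equal totals (-0.0273) and ranged from -0.0672 to 0.131 with single spleens left out, and Akt1 was 0.0482 with an equal upper quartile, 0.0385 with the replicate block and 0.0292 with a term for depth. The cause of these changes was not tested. Low read numbers limit Bcl2 most, with 36 to 117 reads in each NM-R spleen, and 3 animals per group limit the comparison of the cohorts.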
